A study of Pinellia ternata with 12 samples.

Results

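The unigenes TRINITY_DN54342_c0_g2 and TRINITY_DN61770_c1_g1 of the Pinellia ternata leaf transcriptome are putative organelle RNA editing factors, 2 of the 208217 unigenes in the table. They were picked because their closest Swiss-Prot proteins in the study's annotation are multiple organellar RNA editing factors of Arabidopsis, MORF8 for DN54342_c0_g2 and MORF2 for DN61770_c1_g1 (the prefix TRINITY_ is left out from here on). Both stood among the unigenes that the study listed as higher under heat than in control leaves. They were thus selected on their measured heat against control values, which are given as a description without a test.

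Total RNA came from leaves of wild-type seedlings grown from tubers in pots at 25 ℃ under a cycle of light and dark. The 3 control libraries came from leaves at 0 h of heat (day 0, labelled normal), and the 3 heat libraries from leaves after 24 h at 40 ℃ (day 1, labelled heat-treated). A treatment tag calls all 6 samples heat-treated, so the title, the source and the day set the groups. Heat leaves were also taken a day later than control leaves, and heat and that day cannot be told apart. The labels speak of biological replicates without saying how many plants went into a library. Leaf marker genes were not looked up here.

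Each value is in TPM, a transcript abundance that is scaled per transcript length and sums to 1000000 in every library, so the number of reads behind a value is unknown. Of all unigenes, 755 were listed at 0 in every library, and limma was run on log2(TPM + 1) of the 68978 whose mean reached 1 TPM. A call needed a log2 fold change beyond 1 in either direction together with a p under 0.05 after Benjamini-Hochberg adjustment. By that rule 4142 unigenes (6.0% of those tested) were higher under heat and 2793 (4.05%) were lower, a balance that turned to 2928 higher and 3906 lower after median-ratio rescaling and to 2976 and 3590 after quantile normalization. The median log2 difference over all tested unigenes was 0.17, and it was 0.16, 0.08 and 0.26 in heat replicates 1, 2 and 3 over the control mean.

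In flowering plants many cytidines in chloroplast and mitochondrial transcripts are changed to uridine before translation. Pentatricopeptide repeat (PPR) proteins recognize the sites, and the small MORF proteins bind to PPR proteins and to each other and are needed for editing at many sites. In Arabidopsis MORF8 is found in both organelles and MORF2 in chloroplasts, where loss of MORF2 impairs chloroplast development. The DAG protein of snapdragon, after which part of the family is named, is required for chloroplast differentiation.

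The names rest on matches between species. For DN54342_c0_g2 the Swiss-Prot match and the match to an apple protein both led to the Arabidopsis locus of MORF8. For DN61770_c1_g1 the Swiss-Prot match was MORF2, whereas the closest nucleotide match was a banana transcript named after the MORF8 locus. Which family member DN61770_c1_g1 stands for is therefore uncertain, and neither unigene was followed to a gene of P. ternata.

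DN54342_c0_g2, the MORF8 match, was listed at 17.3, 19.6 and 12.1 TPM in control replicates 1, 2 and 3. Under heat it was listed at 77.3, 69.4 and 72.1 TPM. The lowest heat library was 3.54 times the highest control library, and the groups did not overlap, as held for 15199 tested unigenes (22.0%) in this direction. The mean level was 16.3 ± 3.85 TPM in control and 72.9 ± 4.03 TPM in heat leaves (SD, n = 3 in each group), a ratio of 4.46. On the log2(TPM + 1) scale the difference was 2.12 (standard error 0.25 from limma), and 640 tested unigenes had a larger one. In leaf RNA as a whole, a change in the number of cells of a type and a change in the RNA per cell cannot be told apart.

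DN61770_c1_g1, the MORF2 match, was listed at 12.9, 11.1 and 11.9 TPM in control replicates 1, 2 and 3 and at 41.5, 49.6 and 47.5 TPM under heat. Its groups were also apart, with the lowest heat library at 3.22 times the highest control library. The mean level was 11.96 ± 0.907 TPM in control and 46.2 ± 4.20 TPM in heat leaves (SD, n = 3 in each group), a ratio of 3.87. The log2 difference was 1.86 (standard error 0.22 from limma), with 1007 tested unigenes above it.

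The replicates of DN61770_c1_g1 lay close together. Its pooled standard deviation between replicates was 0.12 on the log2 scale, and 95.9% of the 12162 unigenes with a mean of 10 to 100 TPM had a larger one. For DN54342_c0_g2 the same standard deviation was 0.25, which 70.9% of those unigenes exceeded, beside a median of 0.34. Most of its spread lay in the control leaves, where the coefficient of variation was 23.6% against 5.53% under heat. For DN61770_c1_g1 it was 7.59% in control and 9.09% in heat leaves. Both unigenes were picked from rises that the study called on these same libraries, and such a call favours a small spread between replicates. Their place among the 12162 unigenes is therefore a description.

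**Figure D1:**
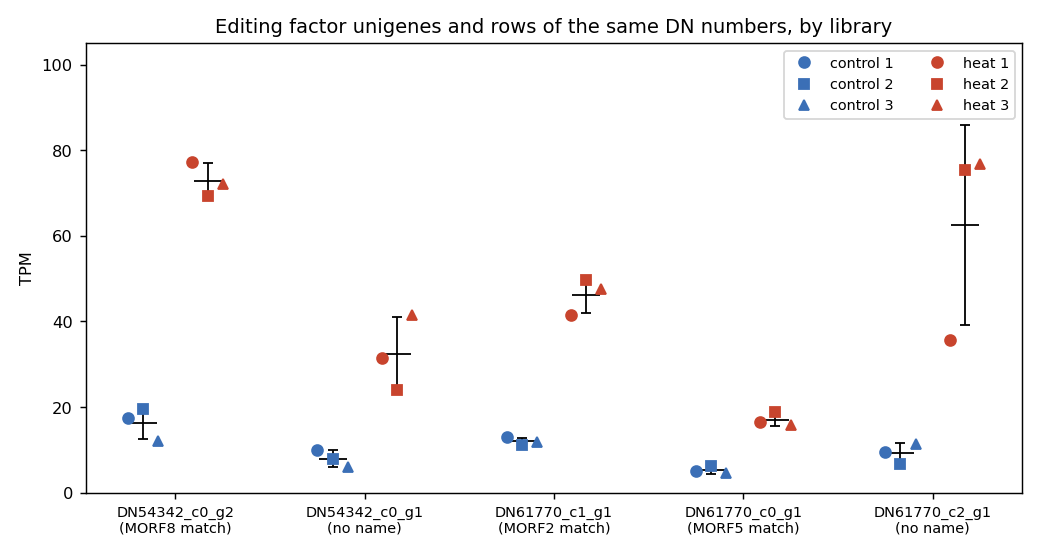
TPM (vertical axis) of the editing factor unigenes and of the tested rows that share their DN number, in each of 3 control (blue) and 3 heat (red) libraries; horizontal lines are group means and bars the SD. All 3 heat points lie above all 3 control points in each of the 5 unigenes, as in 22.0% of all tested unigenes. DN61770_c2_g1 has 1 heat library at 35.6 TPM and the other 2 at 75.4 and 76.7 TPM.

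The MORF8 match was the more abundant of the pair in every library. Its level was 1.35, 1.77 and 1.02 times that of the MORF2 match in control replicates 1, 2 and 3, so that both were nearly equal in control replicate 3. Under heat the ratio was 1.86, 1.40 and 1.52. The mean ratio was 1.38 ± 0.379 in control and 1.59 ± 0.241 in heat leaves (SD, n = 3 in each group), and the ranges overlapped. The log2 ratio differed between groups by 0.24, less than its SD between control replicates of 0.40, and this difference was 0.03 without control replicate 3 and 0.44 without control replicate 2.

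Within the heat leaves the MORF8 match was highest in replicate 1 and the MORF2 match was lowest there. Over the mean of the controls, the log2 difference of the MORF8 match was 2.20, 2.05 and 2.10 in heat replicates 1, 2 and 3, and that of the MORF2 match was 1.72, 1.97 and 1.91. The summed level of the pair was 118.8, 119.0 and 119.6 TPM in these libraries. In control replicates 1 to 3 it was 30.2, 30.7 and 24.0 TPM.

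Trinity gives unigenes of 1 read cluster a common DN number and component, and such rows may be parts or copies of 1 gene and may share reads. The DN numbers of the pair hold 5 further rows, of which 3 were tested, and all 3 were called higher, against 6.0% of all tested unigenes. Of these rows DN54342_c0_g1 shares its component with the MORF8 match, whereas no further row of DN61770 shares that of the MORF2 match. The study had listed DN54342_c0_g1 and DN61770_c0_g1 among its rises on the same libraries, so their calls are not independent evidence of a rise.

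DN54342_c0_g1, which has no name at hand and shares its component with the MORF8 match, was at 9.88, 7.91 and 5.86 TPM in control and at 31.4, 23.9 and 41.5 TPM in heat leaves. It rose by 1.90 on the log2 scale (standard error 0.29, adjusted p = 0.00375 from limma). Heat replicate 2 was the lowest heat library of both rows, and the highest was replicate 3 for this row and replicate 1 for the MORF8 match. The MORF8 match made up 63.7% to 71.3% of the summed TPM of the component in control leaves and 63.5% to 74.4% under heat.

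DN61770_c0_g1 matched MORF5, a mitochondrial member of the family in Arabidopsis. It was at 5.11, 6.32 and 4.53 TPM in control and 16.5, 18.8 and 15.8 TPM in heat leaves, and rose by 1.52 on the log2 scale (standard error 0.24, adjusted p = 0.00492 from limma). It was thus the lowest of the 3 MORF matches in both groups, as TPM levels per length. Again its groups did not overlap, as in 22.0% of all tested unigenes.

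DN61770_c2_g1, with no name at hand, was at 9.54, 6.77 and 11.4 TPM in control leaves and at 35.6, 75.4 and 76.7 TPM under heat. It rose by 2.58 on the log2 scale (standard error 0.33, adjusted p = 0.00170 from limma), more than either named row of its DN number, although that difference was not tested. Heat replicate 1 lay apart from the other 2, at 1.87 over the control mean on the log2 scale against 2.93 and 2.95. Without heat replicate 1 the log2 fold change was 2.94.

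The remaining rows were near the limit of the table. DN61770_c2_g2 was listed at 0 in all control libraries and in heat replicate 1, and at 3.06 and 2.83 TPM in heat replicates 2 and 3. DN61770_c2_g3 reached at most 0.709 TPM in any library. Neither passed the filter of a mean of 1 TPM.

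Summed over all its rows, DN61770 stood at 27.9, 24.3 and 27.9 TPM in control leaves and at 93.7, 147.6 and 143.4 TPM under heat. The share of that sum held by the MORF2 match was 42.8% to 46.3% in control leaves. Under heat it was 44.3% in the highest library and 33.1% and 33.6% in the other 2, where DN61770_c2_g1 was high.

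Rows of a common component were often called together in the whole table. Of 2858 unigenes called higher that had another tested unigene in their component, 1278 (44.7%) had one that was also called higher, against 4475 of 46769 (9.57%) of all tested unigenes with such a neighbour. By DN number the shares were 43.1% of 3375 and 11.4% of 55152. The joint calls of rows around the pair are to be read against these shares.

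Beyond these clusters, 2 more unigenes at hand carry names of the MORF and DAG family. The list of 5 with the pair was read from the study's table of rises, so a count of rises in it is no independent evidence of direction. With the pair left out, 3 of 3 were called higher (6.0% of all tested unigenes), at a median log2 fold change of 1.84 against 0.17 over all tested unigenes.

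DN74071_c2_g1, whose best protein match is a chloroplast DAG protein of grape, was at 17.2, 13.9 and 8.52 TPM in control and 50.5, 53.0 and 55.9 TPM in heat leaves. It rose by 1.98 on the log2 scale (standard error 0.28, adjusted p = 0.00252 from limma). DN45398_c0_g1, matched at the nucleotide level to a chloroplast DAG protein of date palm, was at 4.52, 8.29 and 4.89 TPM in control and 19.5, 31.9 and 19.4 TPM in heat leaves. It rose by 1.84 (standard error 0.30, adjusted p = 0.00593 from limma), and replicate 2 was its highest library in both groups.

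In control leaves the MORF8 match, the DAG match DN74071_c2_g1 and the MORF2 match stood at means of 16.3, 13.2 and 11.96 TPM, and neighbours in that order differed by less than the larger of their replicate SDs. DN45398_c0_g1 and the MORF5 match followed at 5.90 and 5.32 TPM. Under heat the order was 72.9, 53.1 and 46.2 TPM for the same leading 3, with the groups of heat replicates not overlapping between neighbours, and then 23.6 and 17.03 TPM. The summed TPM of the 5 was 57.0, 59.2 and 42.0 in control and 205.3, 222.6 and 210.7 in heat leaves.

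**Figure D2:**
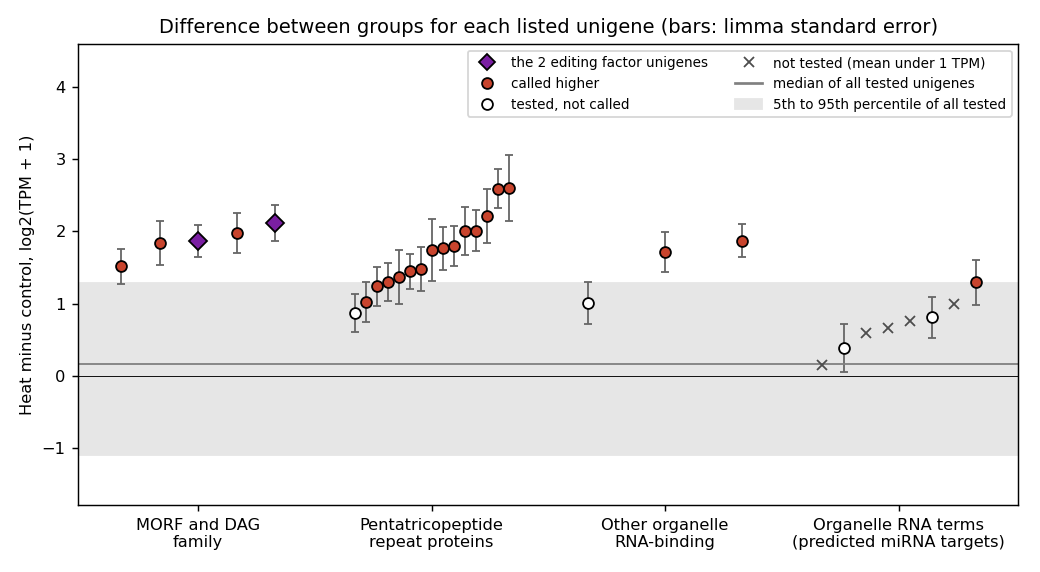
Difference of mean log2(TPM + 1), heat minus control (vertical axis), for each listed unigene in 4 lists, with bars of 1 limma standard error; the grey band spans the 5th to 95th percentile of all tested unigenes (−1.10 to 1.29) and the grey line their median of 0.17. The MORF and DAG family lies above the band, the PPR list runs from 0.87 to 2.60, and the predicted miRNA targets lie within the band or at its edge.

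PPR proteins, the site recognition partners of MORF proteins, were represented by 15 named unigenes, again read from the study's table of rises. That choice fixes the direction of the list, so its counts are a description and no evidence of a rise. Limma called 14 of 15 higher (6.0% of all tested unigenes), and all 15 differences were above 0, with a median log2 fold change of 1.74 and a range of 0.87 to 2.60. In all 15 every heat library lay above every control library, as in 22.0% of all tested unigenes. Of the 15, 4 had a control mean under 1 TPM and so passed the filter through their heat level. Their levels were below those of the pair, with means of 0.167 to 5.76 TPM in control leaves and 5.15 to 19.8 TPM under heat. Without control replicate 2, or without heat replicate 3, 8 of 15 were called.

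DN29026_c0_g1, the most abundant PPR unigene under heat, matched At3g57430, the locus of a chloroplast editing factor in Arabidopsis. It was at 2.05, 3.58 and 1.92 TPM in control and 20.2, 18.3 and 21.0 TPM in heat leaves, and rose by 2.60 on the log2 scale (standard error 0.27, adjusted p = 0.000454 from limma). DN75184_c3_g2, a match to At4g33990, was at 5.76 ± 2.19 TPM in control and 17.6 ± 4.42 TPM in heat leaves (SD, n = 3 in each group), with a log2 fold change of 1.48 (adjusted p = 0.0157 from limma). That call ended without control replicate 2 (adjusted p = 0.0588), control replicate 3 (0.0635) or heat replicate 3 (0.0658).

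DN72932_c4_g1 matched ELI1, a chloroplast editing factor of Arabidopsis. It was at 7.31, 5.20 and 1.88 TPM in control leaves, where replicate 3 was low, and at 12.2, 11.5 and 14.4 TPM under heat. Its log2 fold change was 1.37 with a standard error of 0.37 (adjusted p = 0.0420 from limma), and it was called in 3 of 13 alternative settings, over which the adjusted p ran from 0.0351 to 0.129. The call ended without control replicate 2 or 3 and without each heat replicate, and the log2 fold change was 0.93 without control replicate 3. DN75001_c3_g1, the match to DG1, a chloroplast PPR protein needed for greening in Arabidopsis, was the exception in the list, at 4.10 ± 0.752 TPM in control and 8.31 ± 1.36 TPM in heat leaves (SD, n = 3 in each group). Its log2 difference of 0.87 had an adjusted p of 0.0578 from limma.

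Another unigene with an ELI1 match, DN47420_c2_g1, is given because of its spread and was chosen after its values were seen. It was at 0.202, 0.206 and 0.0916 TPM in control leaves and at 2.74, 5.17 and 14.4 TPM under heat. Its coefficient of variation under heat was 82.7%, against 5.53% and 9.09% for the MORF8 and MORF2 matches, and the log2 fold change of 2.60 had a standard error of 0.46 (adjusted p = 0.00782 from limma). With a control mean of 0.167 TPM it passed the filter only through its heat level, so its call is given as no support for a rise. With a pseudocount of 0.1 in place of 1 the log2 fold change was 4.53, since the control levels lie well under 1 TPM.

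3 other unigenes carry names of organelle RNA-binding proteins, again read from the study's table of rises. That choice fixes their direction, so their values and calls are a description and no independent evidence of a rise. DN52549_c0_g1 matched the mitochondrial glycine-rich RNA-binding protein RBG2 and DN60082_c2_g1 its relative RBG3, and in Arabidopsis both proteins take part in mitochondrial RNA editing. DN52549_c0_g1 was at 6.59, 5.80 and 7.07 TPM in control and 26.2, 28.2 and 24.9 TPM in heat leaves, and rose by 1.87 on the log2 scale (standard error 0.23, adjusted p = 0.00123 from limma).

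DN60082_c2_g1 was lower, at 1.19, 1.22 and 0.833 TPM in control and 4.98, 7.44 and 5.24 TPM in heat leaves, and rose by 1.71 (standard error 0.28, adjusted p = 0.00537 from limma). DN72518_c4_g2, a match to ROOT PRIMORDIUM DEFECTIVE 1 with a plant organelle RNA recognition domain, a domain of intron splicing factors, was at 3.14 ± 0.999 and 7.26 ± 1.56 TPM (SD, n = 3 in each group). Its log2 difference of 1.01 was not called (adjusted p = 0.0538 from limma), although it was called without heat replicate 1 (adjusted p = 0.0347) and with a stricter filter of 5 TPM (0.0469).

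**Figure D3:**
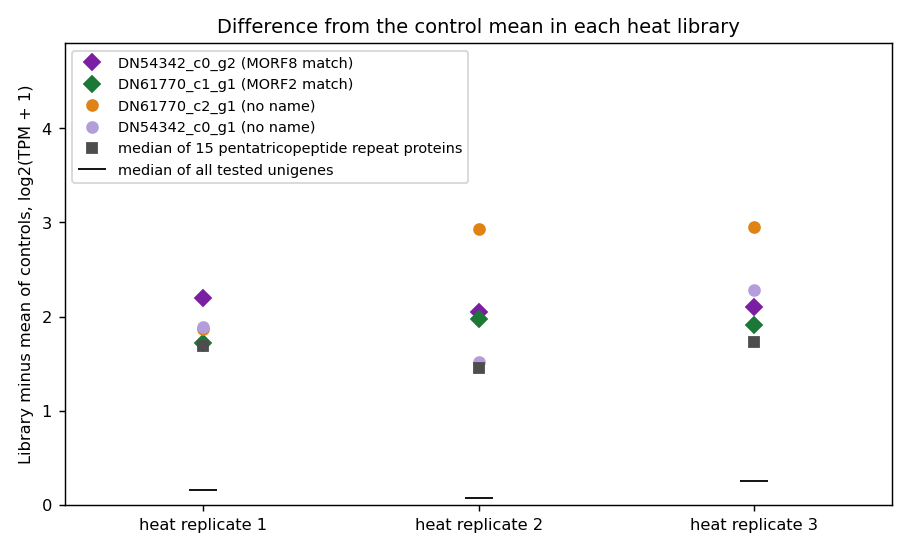
Difference of each heat library from the mean of the controls in log2(TPM + 1) (vertical axis), for the editing factor unigenes (diamonds), the unnamed rows of the same DN numbers (circles), the median of 15 PPR unigenes (squares) and the median of all tested unigenes (dashes). The MORF pair stays between 1.72 and 2.20 in the 3 libraries, while DN61770_c2_g1 moves from 1.87 in replicate 1 to 2.93 and 2.95.

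A list that was not drawn from the rises came from gene ontology terms of organelle RNA modification, processing and cytidine to uridine editing. The terms were those of targets that the study predicted for miRNAs differing under heat, so the list was not neutral to heat. It held 8 unigenes, all at or below 1.39 TPM in control and 3.23 TPM in heat leaves on average, and 3 of them passed the filter. All 8 differences were above 0, as were those of 62.3% of the 207462 unigenes above 0 TPM in at least 1 library. The median of the 8 was 0.71, against 0.12 over those 207462.

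Of the 3 tested, limma called 1 higher (6.0% of all tested unigenes), DN73495_c3_g5 with the term chloroplast RNA modification. Its mean was 0.632 TPM in control and 2.895 TPM in heat leaves, so it passed the filter only through the group where it was high, and its call is given as no support for the list. It was at 0.409, 0.263 and 1.22 TPM in control and 3.34, 2.40 and 2.95 TPM in heat leaves, with a log2 difference of 1.29 (standard error 0.32, adjusted p = 0.0296 from limma), a call kept in 6 of 12 alternative settings with adjusted p from 0.0285 to 0.105. The call ended without control replicate 1 (adjusted p = 0.0955 from limma), control replicate 2 (0.105), heat replicate 2 (0.0625) or heat replicate 3 (0.0899). DN62105_c0_g3 (chloroplast RNA processing) and DN58430_c3_g3 (RNA modification) had log2 differences of 0.81 and 0.38 and did not pass (adjusted p = 0.0991 and 0.479 from limma).

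Likeness of pattern was described by the root mean square difference of centred log2(TPM + 1) over the 6 libraries, which share all library effects, among 308 tested unigenes with a Swiss-Prot name in the part of the study's table of rises at hand. The pair and these candidates were all picked for a rise, and the distance includes that heat difference. Nearness is thus partly fixed by the choice and is only a description. The named unigene nearest to the MORF8 match was DN73459_c1_g1, a protein of the large subunit of the mitochondrial ribosome, at a distance of 0.128. It was at 1.53, 1.88 and 1.10 TPM in control and 11.3, 7.93 and 8.48 TPM in heat leaves, with heat replicate 1 highest as in the MORF8 match. DN67366_c0_g1, the histone methyltransferase ATXR2, and DN74187_c5_g2, the WD repeat-containing protein 3, followed at 0.160 and 0.164. Their means were 0.740 and 0.588 TPM in control and 7.35 and 6.22 TPM in heat leaves. Both thus passed the filter only through their heat level, and the pseudocount of 1 shrinks differences at such low control levels. Their nearness is given as no support for a shared pattern.

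The nearest to the MORF2 match was DN52549_c0_g1, the RBG2 match described above, at a distance of 0.0950, the third nearest among all tested unigenes. DN51018_c0_g1, the histone deacetylase complex subunit SAP18, and DN65213_c0_g2, a probable S-sulfocysteine synthase of chloroplasts, followed at 0.116 and 0.118. Between the MORF8 and MORF2 matches themselves the distance was 0.278. For the MORF8 match 109 tested unigenes (0.158%) were at least as near as that, and for the MORF2 match 391 (0.567%) were. As both were picked for a rise, these shares are no evidence of a link between them.

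The log2 difference of the MORF8 match ran from 1.91 to 2.25 over 13 alternative settings, and that of the MORF2 match from 1.66 to 1.94. The lowest value of both came from rescaling the libraries by their median ratio, which also moved the median of all tested unigenes from 0.17 to 0.01.

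**Figure D4:**
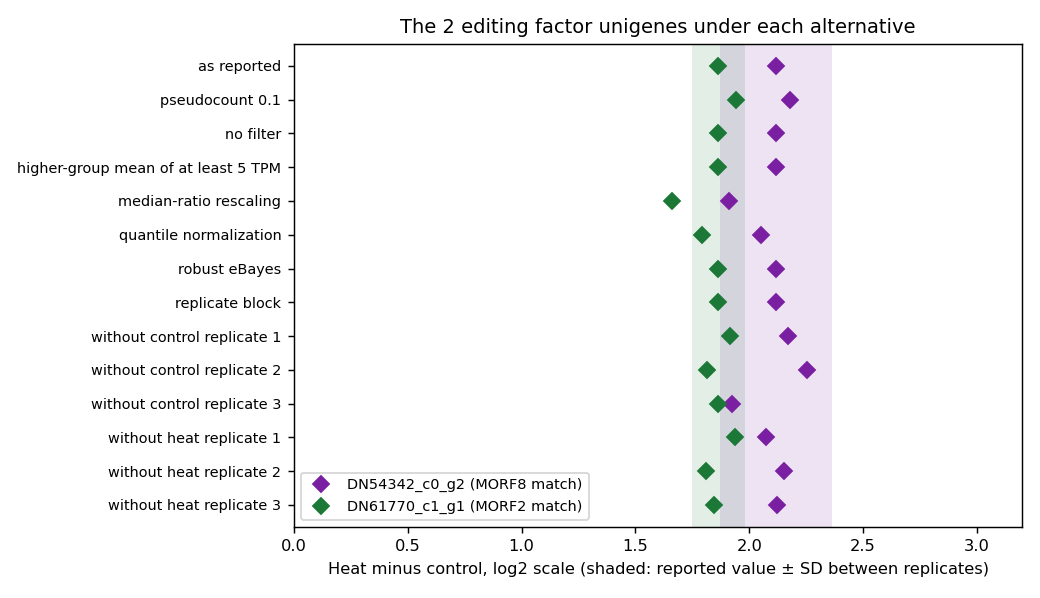
Difference of mean log2 values, heat minus control (horizontal axis), of the MORF8 match (purple) and the MORF2 match (green) as reported and under each of 13 alternative settings; shaded bands span the reported value ± the pooled SD between replicates. The value of the MORF2 match after median-ratio rescaling, 1.66, is the point outside its band, which is the narrower band.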

How the data were processed

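The authors trimmed reads of strand-specific libraries, assembled unigenes with Trinity without a genome, estimated abundance with Salmon and deposited TPM values for 6 RNA-seq libraries (tool versions are not given in the sources used here). TPM was put on the log2(TPM + 1) scale, which understates changes of low unigenes. The limma package, version 3.58.1 under R 4.3.3, was used (lmFit, then eBayes with its trend option) for the 68978 unigenes whose mean over the 6 libraries reached 1 TPM, with p-values adjusted by Benjamini-Hochberg over all of them. The call thresholds follow those the study used with DESeq, which needs counts and was not run here. The p-values rest on 3 libraries against 3. They and the standard errors use a variance that eBayes draws towards that of unigenes of similar level, not the spread of each unigene alone.

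The pair and the lists were chosen with earlier results of these data known. Names come from the annotation in the study's table of rises, of which part was at hand, and from its gene ontology table of predicted miRNA targets. Named unigenes are the pair, the tested rows of its DN numbers, all of a list of 5 or fewer and the 2 to 4 of a longer list with the highest mean under heat, and the 3 named unigenes nearest to each of the pair. As alternatives, the pseudocount was set to 0.1, the filter was dropped or raised to 5 TPM in the higher group, and use was made of median-ratio rescaling, quantile normalization, robust eBayes, a replicate block and the loss of each library. The 6 miRNA libraries were not used.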

Additional observations from a re-analysis of the deposited data

How the results depend on the processing

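No log2 difference of the pair or of a tested listed unigene changed sign under the alternatives run. Of the pair, the log2 difference of DN61770_c1_g1 moved by more than its replicate SD under median-ratio rescaling only, to 1.66, and that of DN54342_c0_g2 under none of the 13 alternatives. Under that rescaling DN54342_c0_g2 fell from 2.12 to 1.91 and DN61770_c1_g1 from 1.86 to 1.66. These like shifts were set against unlike replicate SDs of 0.25 and 0.12. The count of all tested unigenes called higher was 2207 with no filter and 2634 with a filter of 5 TPM in the higher group, and 1468 to 6303 with 1 library left out, highest without heat replicate 1. The count called lower was 1715 with no filter and 1336 to 3751 with 1 library left out. Lower calls outnumbered higher ones after median-ratio rescaling (2928 higher, 3906 lower), after quantile normalization (2976, 3590) and without heat replicate 3 (1486, 1560). With a pseudocount of 0.1 the median log2 difference of the PPR unigenes was 2.39 in place of 1.74, and that of DN73495_c3_g5 was 2.25 in place of 1.29. Among PPR unigenes the count of 14 calls of 15 fell to 8 to 13 with 1 library left out. It was lowest at 8 without control replicate 2 and at 8 without heat replicate 3. All 15 kept an unadjusted p under 0.05 in limma there, but they were picked from the study's rises, so this is no support. The share of all tested unigenes at that p was not taken, here or for the predicted miRNA targets. The call among predicted miRNA targets came to 0 of 3 under quantile normalization (1 at an unadjusted p under 0.05 in limma) and to 0 of 8 with no filter (5 at that p), ranged from 0 to 1 with 1 library left out, and with a filter of 5 TPM in the higher group came to 0 because none was tested. With the replicate number as a block, 3296 unigenes were called higher and 2479 lower. Of 26 other tested unigenes from the lists and the DN numbers of the pair, 24 kept their side of the threshold. DN72932_c4_g1 (adjusted p = 0.0529 from limma) and DN54031_c1_g3, a PPR match picked here for this loss (0.0655), did not. Deviations of same-numbered control and heat libraries correlated at −0.14, −0.06 and 0.14, so the numbers were not taken to pair the samples, and the best correlation was not with the own number for every sample. Without read counts the counting error of a value is unknown, and rows of 1 component may share reads.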
